A study of Mus musculus with 6 samples.

Results

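The genes described here make up the thioredoxin and peroxiredoxin system, the cell's main enzymatic route for removing peroxides and reducing protein disulfides. Members were taken by gene symbol: Srxn1, Txnrd1, Txn1, Prdx1, Prdx2, Prdx3, Prdx4, Prdx5, Prdx6 and Txnip, which are 10 of the 18288 genes measured. RNA was sequenced from mouse CD8+ T cells, the cytotoxic T cell lineage, that had been activated in culture and were collected on day 2. There were 3 libraries labelled Nae1T-KO and 3 labelled Nae1WT, each titled a biological replicate. Nae1 encodes a subunit of the enzyme that activates NEDD8, a ubiquitin-like protein attached to cullins and other proteins. The labels give no strain, age, sex, Cre driver or deleted exon. Whether each replicate came from a separate mouse is not stated. Each group held libraries of both sexes, judged by Xist and Y-linked genes, so its libraries were not all from the same mouse. The p-values cover only the spread among these samples, which may be in part technical.

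Peroxiredoxins are abundant peroxidases that react with hydrogen peroxide through a cysteine, which thioredoxin then returns to its reduced state. Thioredoxin is itself reduced by thioredoxin reductase, a selenoprotein that uses NADPH. When peroxide is in excess the reactive cysteine of the 2-Cys peroxiredoxins can be oxidised further and inactivated, and sulfiredoxin repairs that form. Several of these genes are textbook targets of the transcription factor NRF2, whose repressor KEAP1 works with a cullin that is itself modified by NEDD8. In T cells the system also supplies electrons to ribonucleotide reductase, which makes the precursors of DNA.

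Values are normalized counts, that is, reads divided by 1 size factor per library, and libraries held 15628252 to 25444653 reads assigned to genes. Nae1 had 390.3, 338 and 367 normalized counts across the Nae1T-KO replicates, compared with 1601, 1806 and 1882 across the Nae1WT replicates, so the labels fit the targeted gene. T cell identity was checked with 9 markers, of which Cd8a and Cd8b1 mark the CD8 lineage and the others are shared with other T cells. Their summed level was 37252 to 39931 normalized counts for Nae1T-KO and 43506 to 46112 for Nae1WT. Much of that gap lay in Thy1, with 10811, 8940 and 9099 for Nae1T-KO against 13170, 12151 and 13430 for Nae1WT. Of these 9, 2 were called lower, beside 6.18% of all tested genes: Cd3g at -0.51 (limma, adjusted p = 0.00365) and Thy1 at -0.43 (adjusted p = 0.0102). Cd8a had 6993 ± 817 normalized counts for Nae1T-KO and 7450 ± 638 for Nae1WT, Cd8b1 had 3866 ± 321 and 4319 ± 152, and Cd3e had 2038 ± 48.2 and 2139 ± 223 in the same groups (SD, n = 3 each). Their log2 fold changes were -0.09 (limma, adjusted p = 0.557), -0.16 (adjusted p = 0.176) and -0.06 (adjusted p = 0.650). Cd8b1 was called lower without Nae1T-KO replicate 3 (-0.23, limma, adjusted p = 0.0406). Markers of other cells were low. The 8 measured myeloid and dendritic markers, of 14 listed, summed to 170.0 to 214 normalized counts for Nae1T-KO and 76.3 to 108 for Nae1WT. Of the 4 tested, 1, Xcr1, was called higher, beside 6.53% of all tested genes. Xcr1 was near the floor, with 10.1, 17.6 and 15.1 normalized counts for Nae1T-KO against 4.91, 2.09 and 3.81 for Nae1WT. It passed the filter on low values only through the Nae1T-KO libraries, so its call carries little weight. In Nae1WT replicate 2, Itgam and Mpo were at 0. The 7 CD4 T cell markers summed to 582 to 929 and 358 to 511 in the same groups, with Cd4 itself at 70.3 ± 49.0 and 60.9 ± 51.6 (SD, n = 3 each). Most of that separation lay in 1 of the 7, the cytokine gene Il13, which had 669, 352 and 245 normalized counts for Nae1T-KO against 83.5, 159.9 and 203 for Nae1WT. The 11 B cell markers summed to 417 to 999 in Nae1T-KO and 318 to 537 in Nae1WT, and 3 markers of NK and gamma-delta T cells to 14.1 to 34.3 and 21.95 to 28.2. The 9 erythroid markers summed to 231 to 2107 in Nae1T-KO, highest in replicate 2, and to 190.3 to 708 in Nae1WT. Libraries also differed in sex: Nae1T-KO replicates 1 and 2 and Nae1WT replicate 3 expressed Xist, and the others the Y-linked genes. Differences between libraries of the same sex are therefore given for the 10 members. In bulk samples, more cells of a kind and more RNA per cell cannot be told apart.

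Of the 10 genes, 5 were higher in Nae1T-KO, 0 were lower and 5 did not pass the test (limma, Benjamini-Hochberg adjusted p under 0.05 over all 13819 genes tested). All 10 passed the filter on low values. The share called higher over all tested genes was 6.53%, and the share called lower was 6.18%. At least 2-fold higher and called were 2 members, Srxn1 and Txnrd1, against 1.44% of all tested genes. The members' median log2 fold change was 0.25, against -0.01 for all tested genes. The range among members was wide. Srxn1 differed most, Txnrd1 came next, and Txn1, Prdx5 and Prdx6 were higher by smaller amounts. The groups did not overlap for 5 members in the higher direction and for 1, Prdx3, in the lower direction, where the shares over all tested genes were 16.7% and 17.0%. Without Nae1WT replicate 1, 2 members were called, and without Nae1T-KO replicate 3, Nae1WT replicate 2 or Nae1WT replicate 3, 3 were called. Without Nae1T-KO replicate 1, 4 were called, where the calls of Txn1 and Prdx6 ended and Txnip was called higher.

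**Figure D1:**
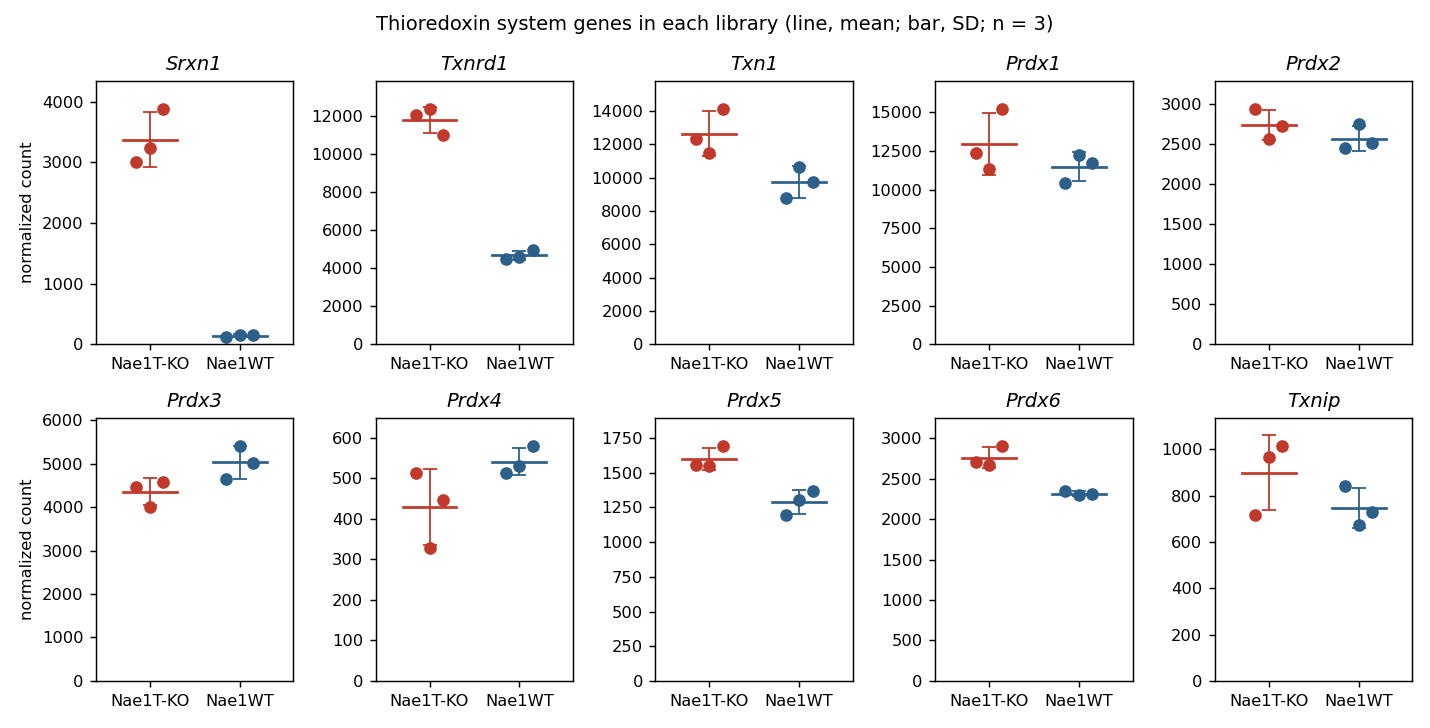
Normalized count of each gene in each library, with Nae1T-KO left of Nae1WT in every panel, axes starting at 0, lines at the mean and bars showing the SD (n = 3 each). Srxn1 and Txnrd1 separate the groups widely, Txn1, Prdx5 and Prdx6 separate them narrowly, Prdx3 separates them with Nae1T-KO lower, and Prdx1, Prdx2, Prdx4 and Txnip overlap.

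Srxn1 encodes sulfiredoxin, the ATP-dependent enzyme that restores overoxidised 2-Cys peroxiredoxins, and lies at chr2:152105524-152111376 on the plus strand (GRCm38, RefSeq). It had 3003, 3239 and 3878 normalized counts across the Nae1T-KO replicates, compared with 112, 144 and 157 across the Nae1WT replicates. Every Nae1T-KO library lay far above every Nae1WT library. The ratio of the group means was 24.5, and the log2 fold change was 4.61 ± 0.14 (SE, limma, adjusted p = 1.41e-07), the highest of all tested genes. The values rest on 2685 to 3840 reads in each Nae1T-KO library and 91 to 206 reads in each Nae1WT library. Comparing only libraries of the same sex gave log2 differences of 4.25 to 5.10 in the 4 pairs. Myeloid and dendritic markers moved in the same direction, with a summed level of at most 214 normalized counts in any library, and their part in the Srxn1 result was not tested.

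Txnrd1 encodes the cytosolic thioredoxin reductase and lies at chr10:82833951-82897724 on the plus strand. It had 12038, 12362 and 11033 normalized counts across the Nae1T-KO replicates, compared with 4469, 4596 and 4943 across the Nae1WT replicates. The groups were separated by more than the range within either of them. The ratio of means was 2.53, with a log2 fold change of 1.34 ± 0.07 (SE, limma, adjusted p = 7.68e-06), and the difference between same-sex libraries was 1.26 to 1.32. Txn1, its substrate thioredoxin, had 12319, 11469.5 and 14115 normalized counts across the Nae1T-KO replicates, compared with 8773, 10671 and 9773 across the Nae1WT replicates. All Nae1T-KO libraries were above all Nae1WT libraries, by a small margin between Nae1T-KO replicate 2 and Nae1WT replicate 2. Its mean was 29.7% higher, with a log2 fold change of 0.37 ± 0.10 (SE, limma, adjusted p = 0.0290) and same-sex differences of 0.23 to 0.69. The Txn1 call ended without Nae1T-KO replicate 1 (0.39, limma, adjusted p = 0.0643), Nae1T-KO replicate 3 (0.29, adjusted p = 0.0522), Nae1WT replicate 1 (0.30, adjusted p = 0.0902), and without Nae1WT replicate 3 (0.38, adjusted p = 0.0838), with 0.00309 to 0.1825 over all alternatives. Reads of Txn-ps1, a processed pseudogene with up to 95.8% identity to Txn1, were at 37.0 to 38.4 normalized counts for Nae1T-KO and 19.65 to 33.45 for Nae1WT.

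The promoter windows of 4 of these genes are shown because 2 of them mark the largest differences, 1 a smaller difference and 1, Prdx1, the most abundant peroxiredoxin transcript. Each is the RefSeq window from 250 bases before to 50 bases after an annotated transcript start, 5′ to 3′ on the gene's own strand, in GRCm38.p6. Capitals mark matches, on either strand, to the antioxidant response element core TGACNNNGC, which NRF2 binds with small MAF proteins, or to the AP-1 site TGANTCA. Adjoining or overlapping matches form a single run of capitals. The windows lie at chr2:152105274-152105573 on the plus strand for Srxn1, chr10:82858956-82859255 on the plus strand for the second annotated start of Txnrd1, chr4:57956362-57956661 on the minus strand for Txn1, and chr4:116685349-116685648 on the plus strand for Prdx1.
Srxn1: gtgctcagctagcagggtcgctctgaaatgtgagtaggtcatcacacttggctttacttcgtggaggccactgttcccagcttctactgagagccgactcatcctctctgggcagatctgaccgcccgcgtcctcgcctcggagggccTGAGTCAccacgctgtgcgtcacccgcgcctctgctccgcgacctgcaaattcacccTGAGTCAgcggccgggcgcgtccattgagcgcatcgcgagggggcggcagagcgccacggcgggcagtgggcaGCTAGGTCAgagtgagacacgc
Txnrd1: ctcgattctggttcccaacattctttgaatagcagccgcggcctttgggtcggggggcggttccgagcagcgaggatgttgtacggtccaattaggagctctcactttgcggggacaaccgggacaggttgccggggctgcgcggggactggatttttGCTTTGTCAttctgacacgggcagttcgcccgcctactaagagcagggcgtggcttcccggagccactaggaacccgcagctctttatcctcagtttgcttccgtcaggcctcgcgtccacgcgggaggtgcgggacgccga
Txn1: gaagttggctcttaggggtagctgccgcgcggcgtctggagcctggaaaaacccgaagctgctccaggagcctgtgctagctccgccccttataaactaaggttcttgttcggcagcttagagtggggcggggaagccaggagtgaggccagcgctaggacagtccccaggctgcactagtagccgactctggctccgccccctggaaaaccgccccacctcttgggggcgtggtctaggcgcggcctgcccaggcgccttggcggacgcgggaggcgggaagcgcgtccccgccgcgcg
Prdx1: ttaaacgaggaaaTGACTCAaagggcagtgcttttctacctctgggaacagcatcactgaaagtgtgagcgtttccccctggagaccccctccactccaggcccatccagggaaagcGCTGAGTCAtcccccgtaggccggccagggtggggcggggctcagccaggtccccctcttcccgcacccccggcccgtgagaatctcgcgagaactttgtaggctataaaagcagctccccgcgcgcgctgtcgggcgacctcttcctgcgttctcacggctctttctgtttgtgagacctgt

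In the Srxn1 window above, AP-1 matches lay 102 to 96 and 45 to 39 bases before the start, and an antioxidant response element match lay 28 to 36 bases after it. The AP-1 match nearer the start continues into GC as TGAGTCAGC, which fits the looser pattern TGANNNNGC. In the Txnrd1 window the antioxidant response element match lay 92 to 84 bases before the start, and the windows of its other 2 annotated starts held none. The window shown is thus the only one of this gene with such a match. Gene-level counts do not show which start these cells used. In the Prdx1 window such a match lay 133 to 125 bases before the start and overlapped an AP-1 match, with a further AP-1 match 237 to 231 bases before the start. The Txn1 window held neither pattern. Windows were found for 9 of the 10 genes, all but Prdx6, in 11 windows. TGACNNNGC occurred in 3 of these 11 windows, and in 12.4% of 32851 promoter windows of the same length. TGANTCA occurred in 2 of the 11 and in 7.81% of all windows, and TGANNNNGC in 5 of the 11 and in 41.3% of all. The E-box CACGTG, which the MondoA and MLX factors that regulate Txnip can bind, was matched in 1 window, that of Prdx4, and in 7.15% of all windows. Only this exact pattern was searched. Variant E-boxes, in the Txnip window or any other, were not counted, so its absence does not show that a window lacks a site for these factors. Both TGANTCA and CACGTG read the same on either strand. A match is a pattern of letters, and no binding was measured here.

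**Figure D2:**
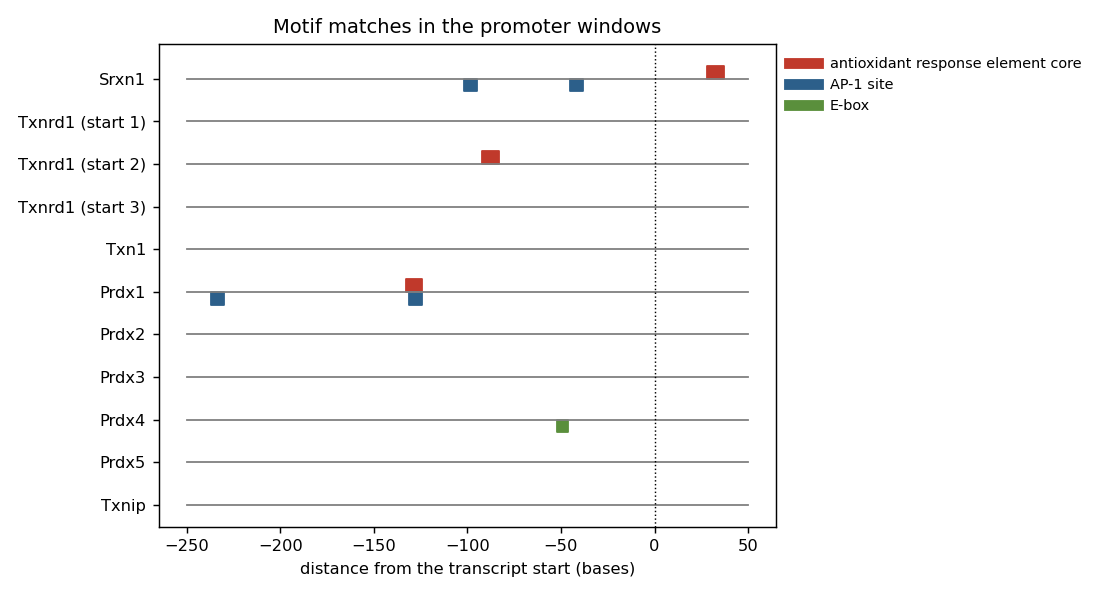
Position of each motif match, in bases from the transcript start, in the 11 promoter windows of 9 genes, with the antioxidant response element core drawn above the line and the AP-1 site and E-box below it. Srxn1 and Prdx1 carry both the antioxidant response element core and AP-1 matches, Txnrd1 carries the first at its second start, Prdx4 carries the E-box match, and the other windows carry none of the 3.

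Prdx1 and Prdx2 encode the cytosolic 2-Cys peroxiredoxins, the main substrates of sulfiredoxin in the cytosol. Prdx1 had 12384, 11317 and 15211 normalized counts across the Nae1T-KO replicates, compared with 10467, 12254 and 11752 across the Nae1WT replicates. Only Nae1T-KO replicates 1 and 3 exceeded every Nae1WT library, and replicate 2 lay inside the Nae1WT range. The log2 fold change was 0.17 (95% interval -0.07 to 0.41, limma, adjusted p = 0.341). Its same-sex differences were -0.05 to 0.54. Leaving out Nae1T-KO replicate 2 gave 0.26, leaving out Nae1T-KO replicate 3 gave 0.05 and leaving out Nae1WT replicate 1 gave 0.10, and none of these passed. Prdx2, which is also a major protein of red blood cells, had 2934, 2566 and 2718 normalized counts across the Nae1T-KO replicates, compared with 2443, 2743 and 2517 across the Nae1WT replicates. The groups overlapped, the log2 fold change was 0.09 (95% interval -0.07 to 0.26, limma, adjusted p = 0.456), and same-sex differences were -0.01 to 0.22. Leaving out Nae1T-KO replicate 1 gave 0.04, leaving out Nae1WT replicate 1 gave 0.06, leaving out Nae1WT replicate 2 gave 0.14, as did scaling to total counts, and Prdx2 passed in none of these. Nae1T-KO replicate 2, which had the highest summed erythroid markers at 2107 normalized counts, had the lowest Prdx2 of its group, and the part of erythroid RNA in the Prdx2 level was not tested. For either gene the interval ends at or below 0.41 on the log2 scale, so an increase of the size seen for Txnrd1 lies outside it. Exons of Prdx2 overlap those of Rnaseh2a by 177 bases and of Junb by 173 bases on the opposite strand, and these neighbours had log2 fold changes of 0.13 (limma, adjusted p = 0.265) and 0.12 (adjusted p = 0.517). Prdx1 has processed pseudogenes in the mouse genome, and 1 of the closest, Gm21399, with up to 98.3% identity, had 159 to 181 normalized counts for Nae1T-KO and 147 to 190.3 for Nae1WT. Tdpx-ps1, a processed pseudogene with up to 96.3% identity to Prdx2, was not among the genes measured.

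Prdx3 and Prdx4 encode the 2-Cys peroxiredoxins of the mitochondrion and the endoplasmic reticulum, and neither passed the test. Prdx3 had 4468, 4000 and 4588 normalized counts across the Nae1T-KO replicates, compared with 4652, 5409 and 5024 across the Nae1WT replicates. All Nae1T-KO values were below all Nae1WT values, and the log2 fold change was -0.21 (95% interval -0.38 to -0.03, limma, adjusted p = 0.112). Prdx4 had 513.4, 327 and 445 normalized counts across the Nae1T-KO replicates, compared with 513.2, 530.0 and 579 in the Nae1WT libraries. The groups touched at Nae1T-KO replicate 1 and Nae1WT replicate 1, and Nae1T-KO replicate 2 was the lowest of the 6 libraries. Its log2 fold change was -0.36 (95% interval -0.69 to -0.03, limma, adjusted p = 0.142), and it was -0.18 without Nae1T-KO replicate 2 (adjusted p = 0.358). Same-sex differences were negative in all 4 pairs for Prdx3, at -0.33 to -0.02, and for Prdx4, at -0.82 to -0.17. In the 21 alternative fits the adjusted p was 0.0737 to 0.393 for Prdx3 and 0.0545 to 0.513 for Prdx4.

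Prdx5 and Prdx6 are the family members that work by other mechanisms and are not repaired by sulfiredoxin in the same way. Prdx5, an atypical 2-Cys enzyme of mitochondria, peroxisomes and cytosol, had 1558, 1550.1 and 1693 normalized counts across the Nae1T-KO replicates, compared with 1196, 1303 and 1366 across the Nae1WT replicates. The groups did not overlap. Its mean was 24.3% higher, with a log2 fold change of 0.31 ± 0.08 (SE, limma, adjusted p = 0.0239), and same-sex differences were 0.18 to 0.50. Prdx6, the 1-Cys enzyme that also has phospholipase activity, had 2708, 2669 and 2907 normalized counts across the Nae1T-KO replicates, compared with 2349, 2296 and 2309 across the Nae1WT replicates. The Nae1WT values lay close together and all below the Nae1T-KO values. Its mean was 19.1% higher, with a log2 fold change of 0.25 ± 0.06 (SE, limma, adjusted p = 0.0297), and same-sex differences were 0.21 to 0.34. The Prdx5 call ended without Nae1WT replicate 1 (0.26, limma, adjusted p = 0.0744), and without Nae1WT replicate 2 (0.32, adjusted p = 0.0717), with 0.00878 to 0.225 over all alternatives. The Prdx6 call held without Nae1T-KO replicate 2 and ended without Nae1T-KO replicate 1 (0.27, limma, adjusted p = 0.0595), Nae1T-KO replicate 3 (0.21, adjusted p = 0.0505), Nae1WT replicate 1 (0.26, adjusted p = 0.0618), Nae1WT replicate 2 (0.24, adjusted p = 0.1105), and without Nae1WT replicate 3 (0.25, adjusted p = 0.105), with 0.0128 to 0.217 over all alternatives. Exons of Prdx5 overlap those of Trmt112 on the opposite strand by 409 bases, which are 19.1% of the exonic length of Prdx5. Trmt112 had a log2 fold change of 0.18 (limma, adjusted p = 0.147), and reads of both genes cannot be told apart in that stretch unless strand was used. Prdx6b, an annotated protein-coding gene with up to 90.1% identity to Prdx6, was not among the genes measured, so its level could not be checked.

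Txnip encodes the thioredoxin-interacting protein, an alpha-arrestin that binds reduced thioredoxin and limits glucose uptake, and whose transcript follows glucose-derived signals through MondoA and MLX. It had 717, 968 and 1015 normalized counts across the Nae1T-KO replicates, compared with 839.9, 672 and 730.1 in the Nae1WT libraries. Nae1T-KO replicates 2 and 3 were above every Nae1WT library and replicate 1 was inside their range. The log2 fold change was 0.26 (95% interval -0.04 to 0.56, limma, adjusted p = 0.239), and same-sex differences were -0.03 to 0.59. Without Nae1T-KO replicate 3 the value was 0.16 (limma, adjusted p = 0.489), and without Nae1T-KO replicate 1 it passed (0.41, adjusted p = 0.0445), with 0.0445 to 0.516 over all alternatives. The antisense gene Gm15441, which shares 606 exonic bases with Txnip, was at 1.01 to 4.47 normalized counts for Nae1T-KO and 1.05 to 2.46 for Nae1WT.

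**Figure D3:**
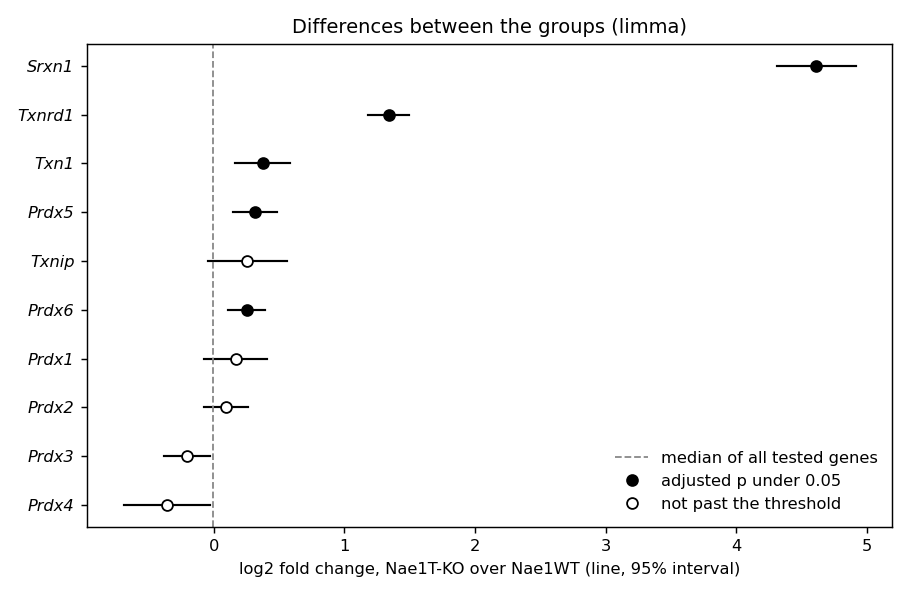
Log2 fold change of each gene, Nae1T-KO over Nae1WT, with its 95% interval (limma, 3 libraries per group), filled where the adjusted p was under 0.05. Srxn1 at 4.61 and Txnrd1 at 1.34 stand above the other members, which lie between -0.36 and 0.37.

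Levels of different genes were compared per kilobase of exon, using the union of annotated exons. Txn1 had the highest level per kilobase in both groups, with 12021 ± 1285 normalized counts per kilobase in Nae1T-KO and 9267 ± 903 in Nae1WT (SD, n = 3 each). Prdx1 followed with 4263 ± 661 in Nae1T-KO and 3776 ± 303 in Nae1WT, and Prdx3 with 2945 ± 210 and 3402 ± 256 in the same groups. These first 3 places were the same in all 6 libraries. Srxn1 had the lowest level of the 10 in every Nae1WT library, at 48.8 ± 8.25 normalized counts per kilobase, and ranked 5 of 10 in every Nae1T-KO library, at 1196 ± 160 (SD, n = 3 each). Txnrd1 ranked 4 in each Nae1T-KO library, at 1667 ± 97.8, and 5 in each Nae1WT library, at 659 ± 34.6. Prdx2 ranked 6 in Nae1T-KO, at 898 ± 60.5, and 4 in Nae1WT, at 842 ± 51.2. Below it came Prdx5, at 748 ± 37.7 in Nae1T-KO and 602 ± 40.1 in Nae1WT, and Prdx6, at 575 ± 26.6 and 482 ± 5.76 in the same groups. Txnip, at 288 ± 51.3 in Nae1T-KO and 239 ± 27.3 in Nae1WT, and Prdx4, at 203 ± 44.8 and 257 ± 16.3, changed places between libraries, so their order was within the spread. Exonic lengths depend on which transcripts these cells use, which gene-level counts do not show. The union of exons was 1051 bases for Txn1 and 3043 for Prdx1. Before division by length, Txn1 had 12634.5 ± 1350 and Prdx1 12971 ± 2012 normalized counts in Nae1T-KO (SD, n = 3 each). In Nae1WT they had 9739 ± 949 and 11491 ± 921 (SD, n = 3 each), so the order of these genes rests on the lengths used.

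**Figure D4:**
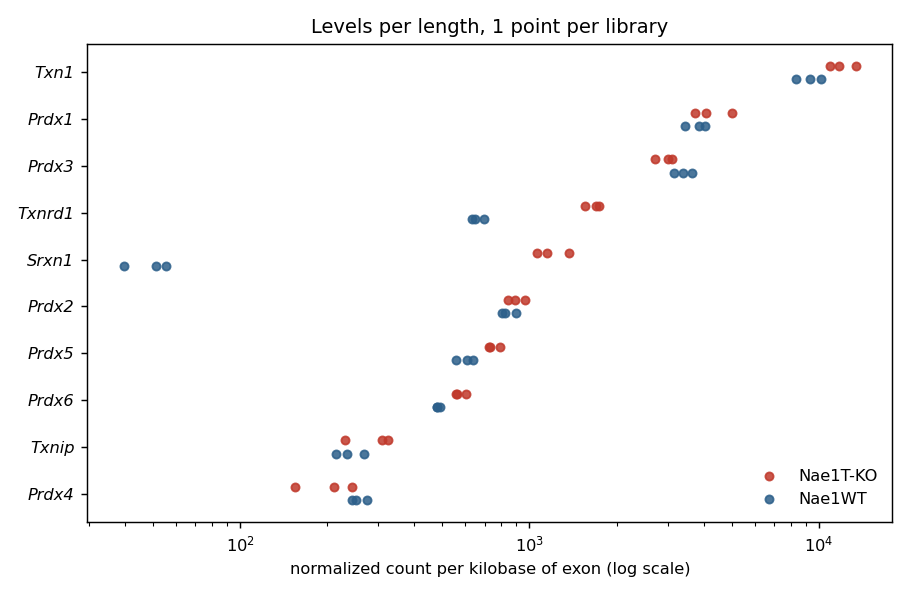
Normalized count per kilobase of exon on a log scale, 1 point per library, with Nae1T-KO above Nae1WT for each gene. Txn1, Prdx1 and Prdx3 hold the first 3 places in both groups, while Srxn1 sits at 1065 to 1375 in Nae1T-KO and 39.6 to 55.6 in Nae1WT.

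Ratios between members were also computed per kilobase. The summed level of the 6 peroxiredoxins was 9632 ± 951 normalized counts per kilobase in Nae1T-KO and 9362 ± 630 in Nae1WT (SD, n = 3 each), a difference smaller than either SD. Srxn1 amounted to 12.8%, 15.5% and 14.9% of the summed level per kilobase of Prdx1, Prdx2, Prdx3 and Prdx4 in the Nae1T-KO libraries, against 0.519%, 0.579% and 0.665% in the Nae1WT libraries. Txnrd1 amounted to 14.5%, 16.0% and 11.6% of the Txn1 level per kilobase in Nae1T-KO and 7.56%, 6.39% and 7.50% in Nae1WT, with no overlap. Within the peroxiredoxin sum, Prdx3 made up 30.6 ± 1.19% in Nae1T-KO and 36.3 ± 0.514% in Nae1WT, and Prdx1 made up 44.1 ± 2.64% and 40.3 ± 0.599% in the same groups (SD, n = 3 each). The Prdx3 share was lower in all 3 Nae1T-KO libraries than in any Nae1WT library. These ratios were not tested. Their sizes rest on the union of annotated exons, so the percentages hold only as far as those lengths fit the transcripts used. Each gene was divided by the same length in both groups.

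Among 64 measured genes of 9 neighbouring groups, chosen by function, 63 were tested, and 3 were higher, 3 were lower and 57 did not pass (limma). The gene below the filter was Gpx7, with means of 7.29 normalized counts for Nae1T-KO and 6.61 for Nae1WT. Their share called, 9.52%, was near the 12.7% of all tested genes, and their median log2 fold change was -0.09 against -0.01. With scaling to total counts, 5 were higher and 1 was lower. The mitochondrial thioredoxin arm and the third reductase had 0 of 3 called, with Txn2, Txnrd2 and Txnrd3 at -0.13, -0.10 and 0.28 on the log2 scale. Of 15 thioredoxin domain and thioredoxin-like genes 0 were higher and 1 was lower, Tmx4, which encodes a membrane protein of the endoplasmic reticulum, at -0.44 (limma, adjusted p = 0.0362). The 4 glutaredoxins had 0 higher and 1 lower, Glrx3, a glutaredoxin of iron-sulfur cluster handling, at -0.35 (adjusted p = 0.0489). Among 7 thioredoxin clients 1 was higher and 0 lower. That gene was Msrb2, a mitochondrial methionine sulfoxide reductase, at 0.65 (limma, adjusted p = 0.0397), while the ribonucleotide reductase subunits Rrm1 and Rrm2 had -0.22 (adjusted p = 0.0547) and -0.09 (adjusted p = 0.369).

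Of 6 tested enzymes that remove peroxide or superoxide outside the peroxiredoxins, 1 was higher and 0 were lower. Cat, which encodes the peroxisomal catalase, had 894, 877 and 809.8 normalized counts across the Nae1T-KO replicates, compared with 711, 598 and 659 across the Nae1WT replicates, a log2 fold change of 0.39 (limma, adjusted p = 0.0176). Sod1 had 5329, 4579 and 6470 normalized counts for Nae1T-KO against 3738, 4742 and 3900.4 for Nae1WT, with overlap, and did not pass (0.40, limma, adjusted p = 0.0782). The sestrins had 1 of 3 higher and 0 lower. Sesn2, a stress-induced inhibitor of mTORC1 signalling, had 436, 417 and 342 normalized counts across the Nae1T-KO replicates, compared with 250.5, 218 and 229 in the Nae1WT libraries, with a log2 fold change of 0.77 (limma, adjusted p = 0.00330). The alpha-arrestins with MondoA and MLX had 0 of 6 called and the disulfide enzymes of the endoplasmic reticulum that work with Prdx4 had 0 of 10, beside the 12.7% called among all tested genes. Of 9 genes for selenocysteine synthesis and insertion, on which thioredoxin reductase depends, 1 was lower and 0 were higher. It was Sepsecs, which completes selenocysteine on its transfer RNA, at -0.39 (limma, adjusted p = 0.0189).

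Several calls among these neighbours ended with single libraries left out or with other settings. Against 6 with all libraries, the number called was 1 without Nae1WT replicate 3, 2 without Nae1T-KO replicate 1 or Nae1WT replicate 2, and 3 without Nae1T-KO replicate 2. The Msrb2 call ended when any 1 of the 6 libraries was left out (0.54 to 0.74 on the log2 scale, limma, adjusted p 0.0633 to 0.115), and the Tmx4 call ended for each library except Nae1T-KO replicate 2 (-0.46 to -0.35, adjusted p 0.0626 to 0.0985). The Cat call ended without Nae1T-KO replicates 1 (0.36, limma, adjusted p = 0.0564) or 2 (0.38, adjusted p = 0.0560) or Nae1WT replicates 2 (0.33, adjusted p = 0.0771) or 3 (0.40, adjusted p = 0.0577). That of Glrx3 ended without Nae1T-KO replicates 1 (-0.37, limma, adjusted p = 0.0892) or 2 (-0.28, adjusted p = 0.141) or Nae1WT replicates 2 (-0.28, adjusted p = 0.166) or 3 (-0.30, adjusted p = 0.153), and that of Sepsecs without Nae1T-KO replicate 2 (-0.38, adjusted p = 0.0576), and without Nae1WT replicate 3 (-0.36, adjusted p = 0.0814). Sesn2 kept its call without any single library. With sex as a covariate the calls of Tmx4 (limma, adjusted p = 0.0574), Glrx3 (adjusted p = 0.0736) and Msrb2 (adjusted p = 0.0593) ended, and with scaling to total counts those of Tmx4 (adjusted p = 0.0670) and Glrx3 (adjusted p = 0.0547). Over all alternatives the adjusted p was 0.0296 to 0.196 for Msrb2, 0.0289 to 0.160 for Tmx4, 0.00392 to 0.133 for Cat, 0.0106 to 0.166 for Glrx3, 0.00758 to 0.229 for Sepsecs and 5.64e-06 to 0.0564 for Sesn2.

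**Figure D5:**
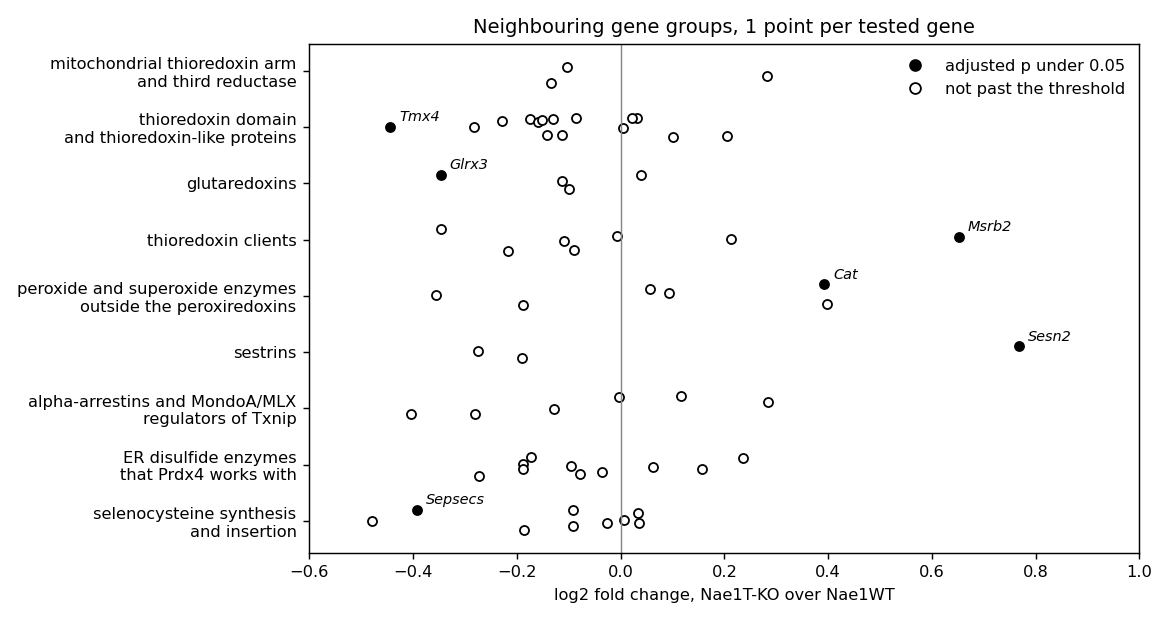
Log2 fold change, Nae1T-KO over Nae1WT, of each tested gene in 9 neighbouring groups, 1 point per gene with vertical scatter for legibility, filled and named where the adjusted p was under 0.05. Points lie between -0.48 and 0.77, and the 6 filled ones are 3 higher and 3 lower.

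Of the regulators that connect the system to NEDD8, Nfe2l2, which encodes NRF2, had a log2 fold change of 0.19 (limma, adjusted p = 0.139) and Keap1 one of 0.30 (adjusted p = 0.0210). Nfe2l2 had 711, 734 and 726 normalized counts for Nae1T-KO against 664, 633 and 611 for Nae1WT. For both genes Nae1T-KO lay above Nae1WT without overlap, as for 16.7% of all tested genes. These are transcript levels, and NRF2 and KEAP1 protein were not measured here. The Keap1 call ended without Nae1T-KO replicate 1 (0.30, limma, adjusted p = 0.0552) or 2 (0.30, adjusted p = 0.0556), and without Nae1WT replicate 2 (0.25, adjusted p = 0.0986), with 0.00735 to 0.204 over all alternatives.

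Genes with the profile most like that of a member were found among 9647 others with a mean of at least 100 normalized counts, by the root mean square difference of centred log2 values over the 6 libraries. For Srxn1 they were Slc7a11, the cystine transporter subunit, at 0.44, Ptprn at 0.51 and Inhba, an activin subunit, at 0.75. Their log2 fold changes were 3.85, 3.87 and 3.80 in that order. Their means were 718, 382 and 554 normalized counts for Nae1T-KO against 49.5, 27.0 and 37.1 for Nae1WT. All 3 thus reached a mean of 100 only through the Nae1T-KO libraries. Slc7a11 and Ptprn were called in all 21 alternative fits. The Inhba call (3.80, limma, adjusted p = 0.00857) ended without Nae1WT replicate 2 (3.95, adjusted p = 0.0544). It also ended with limma-voom (3.72, adjusted p = 0.0625) and with both replicate blocks. For Txnrd1 the nearest were Furin, a proprotein convertase, at 0.08, Caskin2 at 0.08 and Dcun1d3, which encodes a protein that assists NEDD8 attachment to cullins, at 0.10. The means of Furin were 3044 normalized counts for Nae1T-KO and 1128 for Nae1WT, and those of Dcun1d3 were 326 and 146. Those of Caskin2 were 168 and 71.0, so it too reached a mean of 100 only through Nae1T-KO. For Txnip they were Rere, Vsir and Pbxip1, each at 0.07. This measure describes likeness of profile over 6 libraries that fall into 2 groups. It keeps the size of each difference, so genes near Srxn1 or Txnrd1 are largely those with a group difference of similar size. Likeness here restates that difference and is no separate evidence of shared behaviour.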

How the data were processed

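Per the labels' protocols, poly-T beads selected the mRNA and random hexamers primed its copying. The submitters' processing notes name bcl2fastq, HISAT2, DESeq2 1.42.0 and the build mm10. Not given in the sources used here: the read counter, its annotation, strand use and treatment of shared reads. The authors deposited a signal of normalized counts, reads divided by 1 size factor per library. In each library 100% of values were whole multiples of the value of 1 read, within 0.01 of a read, which gave 15628252 to 25444653 reads per library. For Nae1T-KO replicate 3 that step was close to 1 and recovery rests on larger values.

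Genes with at least 10 normalized counts in at least 3 libraries, 13819 of 18288, entered the test, limma 3.58.1 under R 4.3.3 (trend, robust, group alone, two-sided) applied to log2 of the deposited normalized count plus 1. Fold changes on this scale understate the change of low genes. Because the values are normalized, count tests on recovered reads (edgeR 4.0.16, DESeq2 1.42.0, limma-voom) were alternatives, with other scalings, filters, pseudocounts, left-out libraries, replicate blocks, sex as a covariate and a stricter threshold. Exon lengths, overlaps and copies (blastn 2.17.0, at least 90% identity over 100 bases) came from GENCODE M21 (GRCm38), and promoters from RefSeq. Members, lists and the rule for named genes were chosen with earlier results of these data known. That rule names Nae1, the 10 members, up to 4 called genes per list, the 3 profiles nearest to each of Srxn1, Txnrd1 and Txnip, Nfe2l2, Keap1 and 4 T cell markers. Named outside it, with values already known, were Txn2, Txnrd2, Txnrd3, Rrm1, Rrm2, Sod1, Gpx7, Cd3g, Thy1, Xcr1, Itgam, Mpo and Il13, overlap partners and copies. Protein sequences were not used here.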

Additional observations from a re-analysis of the deposited data

How the results depend on the processing

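The direction of all 10 members was the same in each of 21 alternatives, and Srxn1 and Txnrd1 passed the test in every one. Other filters, the replicate block by title number and the stricter threshold leave each fold change as it was, so direction could not change there. The number of members called was 5 in 12 of the 15 alternatives that did not leave out a single library, namely other filters, pseudocounts, scalings, edgeR, DESeq2, limma-voom and sex as a covariate. It was 2 at an adjusted p under 0.01, and 2 to 5 when 1 library was left out. Calls among neighbouring genes were 4 to 9 in those 12 alternatives, 1 at an adjusted p under 0.01, and 1 to 5 when 1 library was left out. Whether the replicate number of the titles pairs the libraries is not stated. Deviations from the group means of same-numbered libraries had correlations of -0.130, -0.177 and -0.266. The libraries of each such pair differed in sex, and deviations from the mean of a small group are not independent. These correlations therefore cannot show whether the libraries were paired. With the replicate block by title number, 2 members and 2 neighbouring genes were called. With the replicate block by library-name number, on 4 libraries, 2 members and 0 neighbours were called, where the fit has fewer samples. Scaling to total counts gave 1176 genes higher and 622 lower, against 903 and 854 with the deposited scaling. Of all tested genes 1757 were called, and the counts beyond a factor of 1.5 were 585 at an adjusted p under 0.01, 968 and 253 with the blocks by title and by library name and, leaving out 1 library, 1034 (Nae1T-KO replicate 2), 844 (Nae1WT replicate 2) and 954 (Nae1WT replicate 3). Signs reversed for 3 marker genes that passed in no alternative: Cd8a without Nae1T-KO replicate 1 (0.00295), Cd3e without Nae1WT replicate 1 (0.00903) and with the replicate block by library-name number (0.000540), and Cd4 without Nae1T-KO replicate 2 (-0.300) or Nae1WT replicate 2 (-0.344). With 1 library left out, their values ranged from -0.16 to 0.00295 for Cd8a, -0.14 to 0.00903 for Cd3e and -0.344 to 0.95 for Cd4. The cause of these changes was not tested. Srxn1 had as few as 91 reads in a Nae1WT library, which limits the precision of its fold.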
